A study of Mus musculus with 6 samples.

Results

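The 4 genes described here, Wdr77, Rtca, Mcts1 and Tbrg4, encode proteins that act on RNA or on its translation. They were chosen by gene name from the 99 genes of the table, and all 4 passed the filter on low values, a mean of at least 1 FPKM over the 6 libraries, as did 53 genes in all. FPKM scales the fragments of a gene to its length in kilobases and to the depth of the library. Poly(A) RNA was sequenced from wild-type B16F10 cells, a mouse melanoma line, as 2 × 150 bp pairs. One group of 3 libraries came from untreated cells and the other group of 3 from cells kept with MTyr-OANPs for 48 h. MTyr-OANPs is a code from the labels for the agent, and no vehicle group is among the labels, so handling and agent cannot be told apart. The libraries are called biological replicates without further detail, so a p-value reflects spread among these libraries, which may be technical. Pigment cell markers are not among the 99 genes, so the labelled cell type was not checked here. The question put to the data is how far these transcripts changed with the agent.

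The 4 proteins' fields of work concern different RNAs and different stages. WDR77, also called MEP50, is the WD-repeat partner of the arginine methyltransferase PRMT5. Together they form the methylosome, which methylates Sm proteins before these are assembled into spliceosomal ribonucleoproteins, and also methylates histones. RTCA is an ATP-dependent cyclase that turns the phosphate at the 3′ end of an RNA into a cyclic phosphate, an end used by RNA ligases. MCTS1 works with DENR on small ribosomal subunits after termination and allows reinitiation downstream of short upstream reading frames. TBRG4, also called FASTKD4, is a mitochondrial protein of the FASTK family that acts in processing and stability of mitochondrial messenger RNAs.

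The genes lie on 3 chromosomes, and coordinates are on GRCm38 as the table gives them. Wdr77 (ENSMUSG00000000561) spans chromosome 3 from 105959369 to 105969760 on the plus strand. Rtca (ENSMUSG00000000339) spans chromosome 3 from 116488963 to 116508208 on the minus strand. Mcts1 (ENSMUSG00000000355) spans chromosome X from 38600578 to 38613426 on the plus strand. Tbrg4 (ENSMUSG00000000384) spans chromosome 11 from 6615598 to 6626067 on the minus strand.

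Sequence upstream of the genes is shown because Wdr77 and Tbrg4 rose. Another reason is that, by RefSeq starts, Wdr77 begins back to back with Atp5pb, a subunit gene of ATP synthase that changed far less. RefSeq (GRCm38.p6) places 234 bases between the start of Atp5pb, which runs to the left, and that of Wdr77, which runs to the right. This shared stretch is chr3:105959264-105959497 on the plus strand. For Tbrg4 and Rtca the 250 bases before the RefSeq start are chr11:6626068-6626317 and chr3:116508176-116508425, each on the minus strand. The Wdr77 span given above begins at 105959369, inside the shared stretch, and the Rtca span ends at 116508208, inside its window. Capitals mark matches, on either strand, to any of 9 motifs chosen after these sequences were seen.
Wdr77 and Atp5pb: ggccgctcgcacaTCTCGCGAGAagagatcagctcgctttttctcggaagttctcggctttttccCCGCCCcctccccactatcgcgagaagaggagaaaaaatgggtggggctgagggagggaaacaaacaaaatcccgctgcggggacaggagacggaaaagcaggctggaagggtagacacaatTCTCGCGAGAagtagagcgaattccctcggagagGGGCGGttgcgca
Tbrg4: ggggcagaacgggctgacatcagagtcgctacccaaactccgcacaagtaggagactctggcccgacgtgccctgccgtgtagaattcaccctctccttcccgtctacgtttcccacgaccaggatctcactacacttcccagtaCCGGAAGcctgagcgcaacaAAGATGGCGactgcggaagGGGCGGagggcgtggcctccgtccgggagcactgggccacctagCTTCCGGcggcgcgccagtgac
Rtca: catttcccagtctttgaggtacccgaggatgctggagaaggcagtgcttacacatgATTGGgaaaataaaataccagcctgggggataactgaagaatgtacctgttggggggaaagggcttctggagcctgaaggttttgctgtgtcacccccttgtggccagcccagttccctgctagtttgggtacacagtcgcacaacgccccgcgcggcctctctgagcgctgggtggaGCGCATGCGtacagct

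The motifs were TCTCGCGAGA (the CGCG element of many housekeeping promoters, taken here as the longest self-complementary run found at 2 places of the first stretch), CACGTG (E-box), CCGGAAG (ETS motif), TGACGTCA (CRE), GCGCATGCG (core of the NRF1 motif), AAGATGGCG (YY1 motif), GGGCGG (GC box), CCAAT and TATAAA. The stretch between the RefSeq starts of Atp5pb and Wdr77 held TCTCGCGAGA at 2 places, beginning 221 and 47 bases before the Wdr77 start. The match at 47 bases lies within an annotated exon of a Wdr77 transcript that begins before the RefSeq start. Both matches lie within an exon of an Atp5pb transcript that begins to the right of the RefSeq start of Wdr77. TCTCGCGAGA was found in 0.39% of 32851 RefSeq windows of 250 bases upstream of a gene start, and 9 windows held it at 2 or more places. The windows of Wdr77 and Atp5pb, which contain this stretch, are counted among these. Its 2 places here follow from how the motif was chosen, so these shares do not measure how unusual they are. The stretch between Atp5pb and Wdr77 also held GGGCGG at 2 places, a motif in 32.7% of windows and at 2 or more places in 16.7%. Upstream of Tbrg4, CCGGAAG was found at 2 places, 105 and 22 bases before the start (6.91% of windows hold it, 0.855% at 2 or more places). AAGATGGCG began 85 bases before the Tbrg4 start (0.606% of windows), and GGGCGG was found once. Rtca had GCGCATGCG beginning 16 bases before its start (1.45% of windows) and CCAAT once (33.8% of windows). RefSeq lists a pair of starts for Mcts1. Of the 9 motifs, none was found before the first and CCAAT was found once before the other. A match is a description of letters and not a site of binding.

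Wdr77 rose most of the 4 genes. Its FPKM was 7.88, 8.29 and 7.56 in untreated libraries 1, 2 and 3, and 15.98, 14.4 and 13.7 in treated libraries 1, 2 and 3. All treated libraries lay above all untreated ones, with a wide gap between the groups. The mean went from 7.91 ± 0.365 to 14.7 ± 1.15 FPKM (SD, n = 3 each), a 1.86-fold rise, with mean counts of 3061 and 5602. The log2 fold change was 0.89 (SE 0.07, edgeR quasi-likelihood test, adjusted p = 3.7e-12). It was the sixth highest of the 53 tested genes.

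Tbrg4, the mitochondrial RNA-processing gene, also rose, by a smaller step. Its FPKM was 11.5, 13.5 and 14.1 in untreated libraries 1, 2 and 3, and 17.0, 16.3 and 16.5 in treated libraries 1, 2 and 3. The groups did not overlap. The untreated libraries were spread more widely, with untreated library 1 lowest. The mean went from 13.1 ± 1.33 to 16.6 ± 0.367 FPKM (SD, n = 3 each), a 1.27-fold rise, with mean counts of 3850 and 4860. The log2 fold change was 0.35 (SE 0.09, edgeR adjusted p = 5.2e-05). It was 0.27 without untreated library 1 (edgeR adjusted p = 0.00094) and 0.67 with quantile normalization (limma adjusted p = 0.00041).

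Mcts1, the reinitiation factor, did not pass the test. Its FPKM was 13.2, 13.3 and 15.0 in untreated libraries 1, 2 and 3, and 14.9, 14.5 and 14.5 in treated libraries 1, 2 and 3. Untreated library 3 was the highest of all 6, so the groups overlapped. The means were 13.9 ± 1.04 and 14.6 ± 0.261 FPKM (SD, n = 3 each), with mean counts of 1740 and 1817. The log2 fold change was 0.08 (SE 0.06, edgeR adjusted p = 0.49). On the log2(FPKM + 1) scale of limma the 95% interval of the difference ran from -0.05 to 0.20. With quantile normalization Mcts1 passed, at a log2 fold change of 0.42 (limma adjusted p = 0.00095).

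Rtca, the RNA cyclase, did not pass either. Its FPKM was 36.9, 40.5 and 38.1 in untreated libraries 1, 2 and 3, and 32.3, 37.9 and 38.4 in treated libraries 1, 2 and 3. Treated library 1 was the lowest, and the other two treated libraries lay within the untreated range. The means were 38.5 ± 1.86 and 36.2 ± 3.39 FPKM (SD, n = 3 each), with mean counts of 5781 and 5437. The log2 fold change was -0.09 (SE 0.09, edgeR adjusted p = 0.20), and -0.01 without treated library 1. On the log2(FPKM + 1) scale of limma the 95% interval of the difference ran from -0.24 to 0.07. The sign of the Rtca value turned under 3 scalings, with log2 fold changes of 0.05 under TMM, 0.05 with library medians aligned and 0.13 with quantile normalization, none of which passed.

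**Figure D1:**
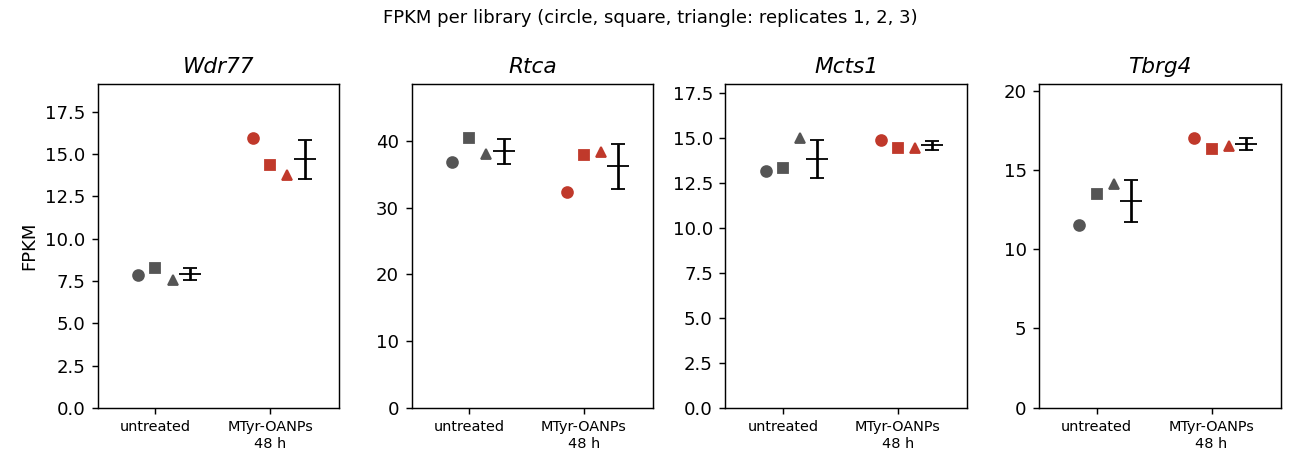
FPKM (vertical axes, each from 0) of the 4 genes in 3 untreated and 3 MTyr-OANPs libraries, with symbols for replicates 1, 2 and 3 and bars for the mean and SD of each group. The treated libraries of Wdr77 (13.7 to 15.98) and Tbrg4 (16.3 to 17.0) lie above all untreated ones, while the groups of Mcts1 and Rtca overlap.

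Of the 4 genes, 2 passed the test, both higher, against a background of 83% of the 53 tested genes called in either direction with 37.7% called higher and 45.3% lower. The groups did not overlap in those 2 genes, against 84.9% of the tested genes in either direction and 39.6% with the treated group higher. A call in these libraries was therefore common, and the median log2 fold change was 0.21 over the 4 genes and -0.03 over all tested genes. An exact permutation test over the libraries gave p = 0.1 for Wdr77 and for Tbrg4, the smallest p that 3 against 3 libraries allow, and p = 0.4 for Mcts1 and p = 0.5 for Rtca (two-sided). TMM, median alignment and quantile normalization moved the log2 fold changes of the tested genes upward by a median of 0.14, 0.13 and 0.19. Wdr77 and Tbrg4 passed under each of these scalings. In bulk RNA, fewer cells of a type and less RNA per cell cannot be told apart.

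**Figure D2:**
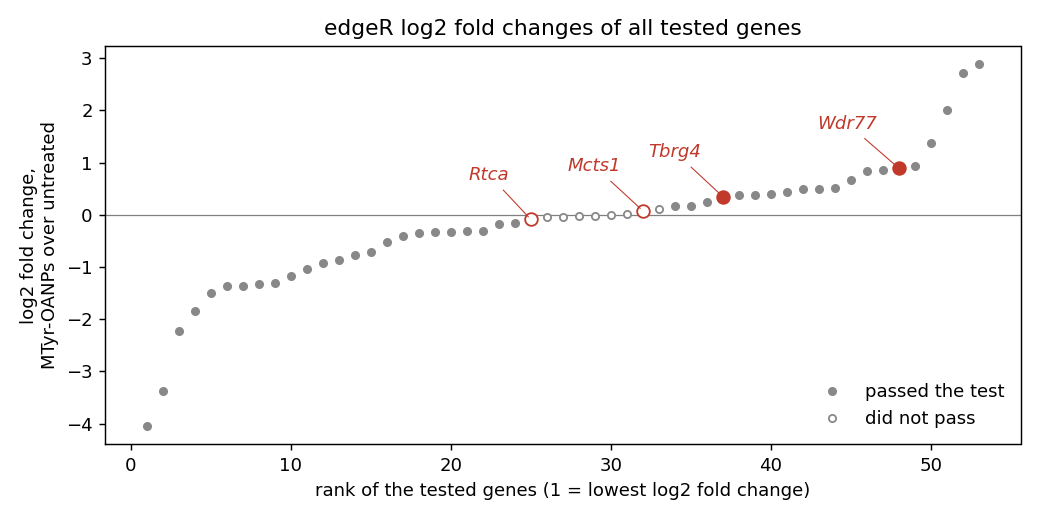
Log2 fold changes (vertical axis) of the 53 tested genes in rank order, filled where edgeR's adjusted p was under 0.05, with the 4 genes in red. Wdr77 (0.89) stands sixth from the top, Tbrg4 (0.35) lies among the smaller rises, and Mcts1 and Rtca lie near 0 among the genes that did not pass.

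Ratios between 2 genes within a library do not depend on a factor applied to the whole library, so the 4 genes were also compared with each other in 6 pairs. Quantile normalization changes genes unequally, and the ratios were not run under it. The FPKM of Wdr77 was 0.598, 0.622 and 0.503 times that of Mcts1 in untreated libraries 1, 2 and 3, and 1.07, 0.994 and 0.951 times in treated libraries 1, 2 and 3. The log2 ratio of Wdr77 to Rtca was -2.28 ± 0.0532 in untreated and -1.30 ± 0.249 in treated libraries (SD, n = 3 each), higher by 0.98 (SE 0.15). That of Wdr77 to Mcts1 was higher by 0.81 (SE 0.11) and that of Wdr77 to Tbrg4 by 0.54 (SE 0.11). Relative to each of the other 3 genes, Wdr77 was thus higher in every treated library than in any untreated one. The log2 ratio of Tbrg4 was higher by 0.45 to Rtca (SE 0.12) and by 0.27 to Mcts1 (SE 0.06), again with no overlap. The log2 ratio of Tbrg4 to Mcts1 was 0.186 ± 0.0086 in treated libraries (SD, n = 3), the tightest of these ratios, and -0.0886 ± 0.103 in untreated ones. The log2 ratio of Mcts1 to Rtca was higher by 0.17 (SE 0.12), and the groups overlapped. By exact permutation (two-sided) each of the 5 pairs without overlap had p = 0.1, and adjusted p = 0.12 over the 6 pairs, so none could pass 0.05 in this design. Mcts1 to Rtca had p = 0.3 and adjusted p = 0.3 in the same exact test. Each pair kept its direction when any 1 library was left out, which for the 5 pairs without overlap could not be otherwise. The difference in Mcts1 to Rtca then ran from 0.08, without treated library 1, to 0.24.

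**Figure D3:**
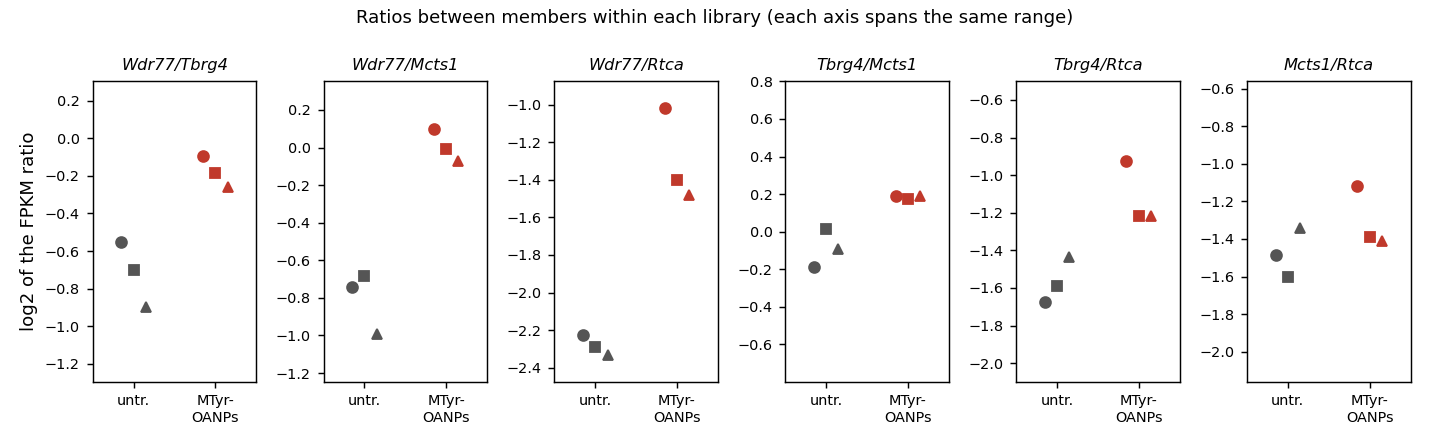
Log2 of the FPKM ratio of each pair of genes in each library (vertical axes of equal span), untreated in grey and MTyr-OANPs in red, with symbols for replicates 1, 2 and 3. In 5 pairs the treated libraries lie above all untreated ones, and in Mcts1 to Rtca they overlap.

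By level per kilobase, the untreated order was Rtca, Mcts1, Tbrg4 and Wdr77. Mcts1 and Tbrg4 did not differ there beyond their spread, since their libraries ran from 13.2 to 15.0 and from 11.5 to 14.1 FPKM. In treated cells Rtca was again highest and Tbrg4 came next. Wdr77 then ran from 13.7 to 15.98 FPKM and Mcts1 from 14.5 to 14.9, so these 2 could not be ordered. Levels rest on the length used. The lengths implied by counts and FPKM were 4844 bases for Wdr77, 1881 for Rtca, 1573 for Mcts1 and 3700 for Tbrg4. These lie within a few bases of the 4841, 1880, 1571 and 3696 bases of all annotated exons together. The protein-coding transcript that GENCODE numbers first is shorter for each gene, at 3682, 1594, 783 and 2290 bases. With those lengths Mcts1 would stand at 27.8 ± 2.09 and 29.3 ± 0.524 in untreated and treated cells and Tbrg4 at 21.1 ± 2.15 and 26.9 ± 0.594 (SD, n = 3 each). Wdr77 would then stand at 10.4 ± 0.481 and 19.3 ± 1.51 and Rtca at 45.4 ± 2.19 and 42.7 ± 4 (SD, n = 3 each), so Wdr77 would be lowest in both groups. This change of length was tried after the data were seen and leaves fold changes as they are.

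Some exons are shared with other genes, and no source used here says whether counting took strand into account. Exons of Wdr77 overlap those of Atp5pb on the opposite strand over 337 bases, 7% of the exonic bases of Wdr77 and 8.2% of those of Atp5pb. Of the 6 annotated Atp5pb transcripts, 1 carries this overlap. Atp5pb had 86.1, 89.6 and 89.9 FPKM in untreated libraries 1, 2 and 3 and 95.1, 98.9 and 103.5 in treated libraries 1, 2 and 3. The log2 ratio of Wdr77 to Atp5pb was higher in treated cells by 0.73 (SE 0.11), with no overlap between groups (exact permutation, two-sided, p = 0.1). At a common depth Wdr77 had 3039 counts untreated and 5646 treated, a difference of 2607. For Atp5pb the difference was 3462, and 8.2% of that is 284. The same share of the untreated Atp5pb count is 2363. The overlap makes up 21% of the 1 Atp5pb transcript that carries it. If all Atp5pb counts came from that transcript, the values with that share would be 727 and 6052. The value of 6052 is larger than the whole untreated Wdr77 count of 3039. How many reads of Atp5pb the Wdr77 count holds was not tested. Wdr77 also shares 1389 exonic bases (28.7%) with Gm42890 on the same strand, which was not analysed here. Rtca shares 478 exonic bases (25.4%) with the noncoding gene Gm26530 on the opposite strand. Tbrg4 shares 127 exonic bases with the small nucleolar RNA gene Snora5c, and Mcts1 had no overlapping gene. No 100-base window of a Mcts1 transcript was found letter for letter in a transcript of another gene, its retrogene Mcts2 included. Windows with a mismatch were not looked for, so whether the Mcts1 count holds reads of a near copy was not tested.

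**Figure D4:**
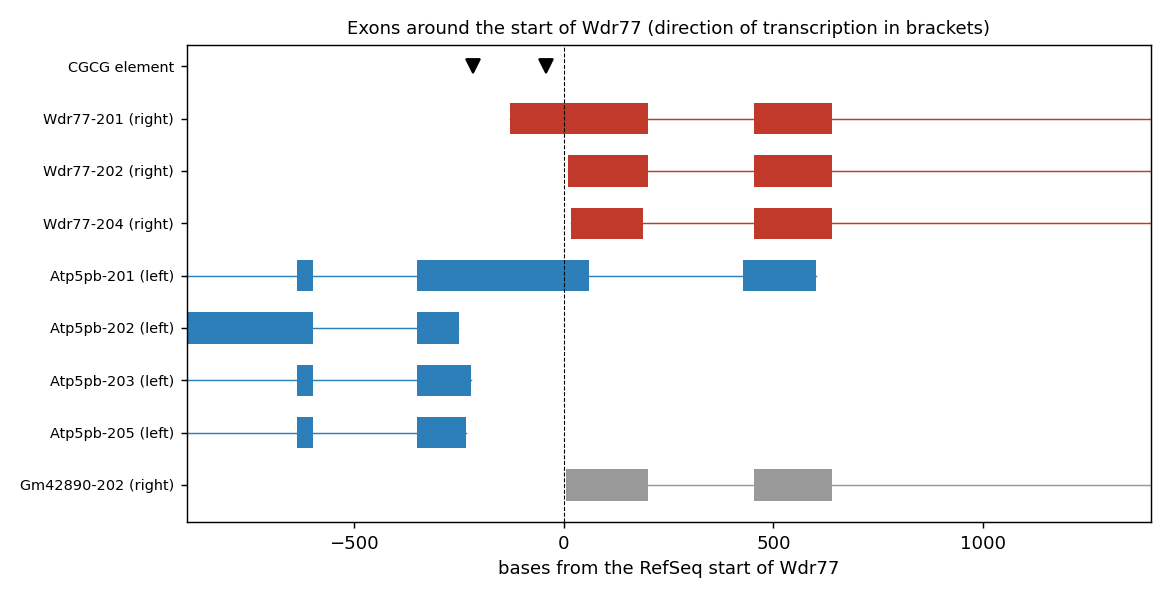
Annotated exons (boxes) of Wdr77, Atp5pb and Gm42890 transcripts by distance in bases from the RefSeq start of Wdr77 (dashed line), with triangles at the 2 matches to the CGCG element. The Atp5pb transcript that begins 601 bases to the right of that start is the one that overlaps exons of Wdr77.

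Among the 99 genes, 5 others lie within 200 kb of one of these genes. Dbt, which encodes the lipoylated core enzyme of branched-chain amino acid breakdown, begins 4.86 kb from Rtca on the opposite strand. Dbt had 9.71, 9.44 and 10.7 FPKM in untreated libraries 1, 2 and 3 and 18.3, 17.9 and 17.1 in treated libraries 1, 2 and 3. Its log2 ratio to Rtca was higher in treated libraries by 0.93 (SE 0.13), with no overlap between groups (exact permutation, two-sided, p = 0.1). Ccm2, whose product is a scaffold protein of endothelial junction signalling, lies 18.9 kb from Tbrg4 and fell (edgeR adjusted p = 1.3e-08), with group means of 19.1 ± 0.819 and 13.3 ± 0.410 FPKM (SD, n = 3 each). The log2 fold change was -0.52 for Ccm2 and 0.35 for Tbrg4, opposite in sign. The milk protein gene Wap, 9.41 kb from Tbrg4, had a count of 0 in each library, and the adenosine receptor gene Adora3, 50.4 kb from Wdr77, had 1 count above 0, a count of 2 in treated library 3. Atp5pb is the neighbour of Wdr77 described above.

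Likeness of pattern was measured as the root mean square difference, over the 6 libraries, of log2 FPKM relative to the untreated mean. Nearest to Wdr77 were the membrane protein gene Gpr107 (0.08) and the serine carboxypeptidase gene Scpep1 (0.09), against a median of 0.75 over the tested genes. Nearest to Tbrg4 were Grasp (0.11) and Tpd52l1 (0.12), with a median of 0.45. Nearest to Rtca were the tyrosine kinase gene Fer (0.08) and Dlat (0.10), which encodes a subunit of the pyruvate dehydrogenase complex, with a median of 0.43. Nearest to Mcts1 were Atp5pb (0.09) and Xpo6 (0.10), which encodes an export receptor for actin, with a median of 0.36. The 4 genes were not each other's nearest. Rtca and Mcts1 were the closest pair among them at 0.17, and Wdr77 and Rtca the farthest apart at 0.71.

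Other genes of the same fields were looked for in the table. Of 154 genes on lists for the methylosome and ribonucleoprotein assembly, RNA end processing, translation initiation, mitochondrial RNA processing and splicing factors, the 4 described here were the ones among the 99. No gene with a ribosomal protein symbol was among the 99 either. Whether partners such as Prmt5, Rtcb, Denr or other FASTK genes differed was therefore not analysed here.

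**Figure D5:**
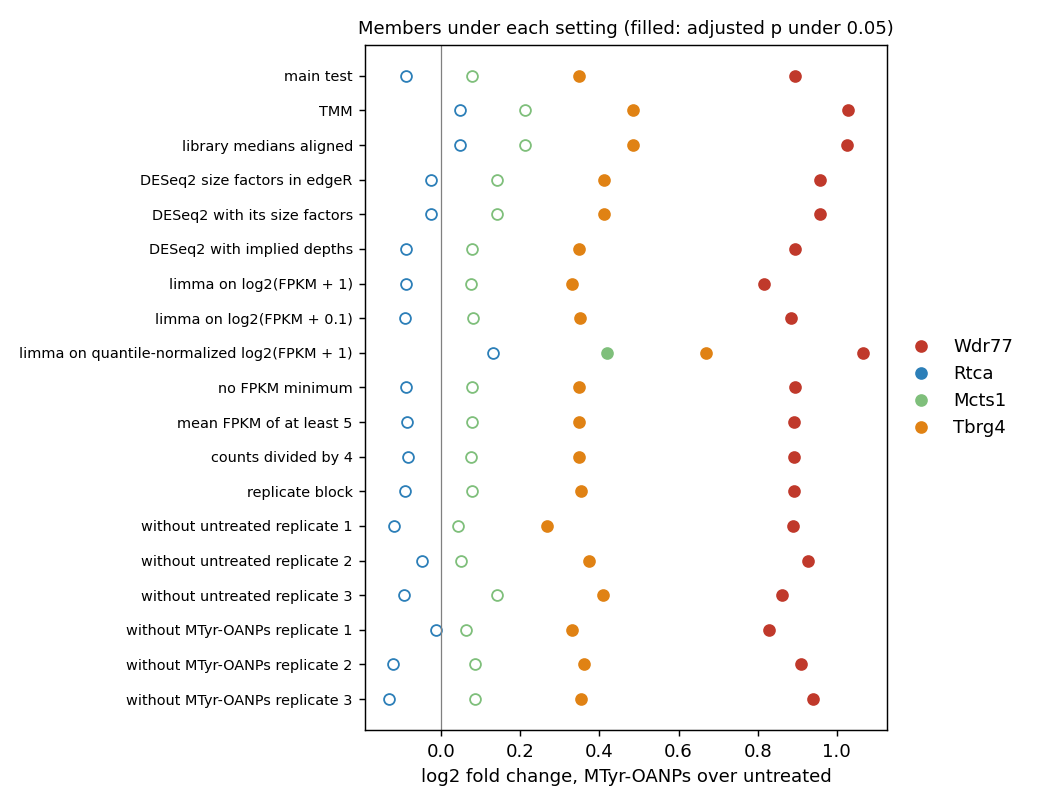
Log2 fold changes (horizontal axis) of the 4 genes in the main test and 18 alternatives, filled where the adjusted p was under 0.05. Wdr77 lies between 0.82 and 1.07 and Tbrg4 between 0.27 and 0.67, each filled throughout, Mcts1 is filled with quantile normalization alone, and Rtca lies on both sides of 0.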

How the data were processed

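The authors' deposited table holds whole-number counts per gene and library and, per the file headers, FPKM values made by the authors. CASAVA 1.4 and mm9 are named in the submitters' processing notes, but 86 of the 99 genes have both ends as in GENCODE M21 on GRCm38 and the other 13 have 1 end. No source used here gives the aligner, counting tool or strand setting. A count of 0 was listed at 0.0001 FPKM.

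Counts divided by FPKM gave relative depths of 0.809 to 1.02 of untreated library 1 (59 genes with counts of at least 50), used as library sizes. Total counts over the 99 genes were 334160 to 421423. Of 41 values from 1 to 20, 30 were multiples of 4, so a count may not be 1 read pair. Genes were tested with the quasi-likelihood test of edgeR 4.0.16 (R 4.3.3) where they had a mean of at least 1 FPKM, two-sided, with Benjamini-Hochberg adjustment over 53 genes and a threshold of 0.05. It shares spread between genes (common coefficient of variation 6.6%). SEs came from log2 FPKM within groups. Replicates differed by more than sampling noise (chi-square per gene of 10.05 or more, or of 2.51 or more if 4 counts are 1 event). limma 3.58.1 gave intervals, and DESeq2 1.42.0 was an alternative. Named are the 4 genes, list genes in the table, table genes within 200 kb and the 2 genes nearest in pattern to each. The genes and lists were chosen with earlier results of these data known.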

Additional observations from a re-analysis of the deposited data

How the results depend on the processing

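Over 18 alternatives, Wdr77 and Tbrg4 kept their direction and passed in each, with log2 fold changes of 0.82 to 1.07 and 0.27 to 0.67. Rtca passed in none, and its value turned positive under TMM (0.047), with library medians aligned (0.048) and with quantile normalization (0.13). Mcts1 was positive in each and passed with quantile normalization alone (0.42). These scalings rest on 53 genes and moved log2 fold changes upward in the median, and quantile normalization moved genes unequally. Leaving out 1 library gave 0.83 to 0.94 for Wdr77, 0.27 to 0.41 for Tbrg4, 0.04 to 0.14 for Mcts1 and -0.13 to -0.01 for Rtca. Genes called numbered 35 to 51, with 42 and 83 genes tested at these ends. The labels do not state whether replicate numbers pair libraries, so numbers were not taken as pairs. Deviations of same-numbered libraries correlated at 0.31, 0.4 and -0.01, and those of differently numbered ones at -0.4 to 0.13. The replicate block gave 0.89 for Wdr77, 0.35 for Tbrg4 and 45 calls against 44, and changed no call among the 4 genes. The 56 alternative values of the ratios, those with Atp5pb and Dbt included, kept their direction. Pairs without overlap could not turn when 1 library was left out. Counts in place of FPKM leave the difference in a ratio nearly as it is. The leave-one-out values of Mcts1 to Rtca were thus the ones that could have turned.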

Other observations

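Pih1d2, annotated in the table with a role in ribosomal RNA processing, was below the FPKM minimum and was picked out after its values were seen. Its counts were 147, 130 and 93 in untreated libraries 1, 2 and 3, and 139, 146 and 132 in treated libraries 1, 2 and 3. The corresponding FPKM values were 0.614, 0.595 and 0.411 untreated and 0.728, 0.599 and 0.541 treated, so the groups overlapped.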
